A study of Mus musculus with 24 samples.

Results

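Keratins are the intermediate filament proteins of epithelial cells, and the keratin genes of mouse small intestinal organoids were followed here after gamma irradiation. The keratin probes were all probes of the array whose symbol is Krt followed by digits only. This gave 47 probes for 42 symbols, of 25697 probes for 18138 symbols on the whole array. All 42 symbols are current names in the RefSeq mouse annotation, and 3 of them, Krt75, Krt82 and Krt86, had several probes. Krt1 was not analysed here. Small intestinal organoids are epithelial cultures in which stem cells give rise to absorptive and secretory cells. These organoids came from C57BL/6 mice and all were kept in medium with Noggin, R-spondin and 50 ng/ml of EGF. Irradiated organoids received 6 Gy 3 days after reseeding and were collected 24, 48 or 96 h later, and each time had unirradiated organoids as its own controls. The 6 groups held 4 arrays each, 24 in all. The labels do not say whether the replicates came from separate cultures or mice, so the p-values describe only how much these samples vary, and that variation may be technical. The organoids hold epithelium without the stroma, immune cells and vessels of the gut wall. They are bulk samples, so that fewer cells of a type and less RNA per cell cannot be told apart.

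A keratin filament is built from pairs of 1 acidic type I and 1 basic type II keratin, and each kind of epithelium makes its own pairs. Simple epithelia such as the gut lining use the type II keratins Krt8 and Krt7 with the type I keratins Krt18, Krt19 and Krt23. Krt20 is a type I keratin of differentiated intestinal cells, found in the villus rather than the crypt, and pairs with Krt8. Stratified epithelia use Krt5 with Krt14 or Krt15 in the basal layer, Krt1 with Krt10 above it in skin, and Krt4 with Krt13 above it in mouth and oesophagus. Krt16 and Krt17 are made by stressed or wounded skin, Krt12 by the cornea and Krt9 by the footpad. Hair and its root sheaths have a large set of their own. Filaments are anchored at desmosomes and hemidesmosomes through cytolinker proteins such as desmoplakin and plectin.

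Signals are given as log2 of the background-corrected and quantile normalized bead intensity, on which 1 unit is a doubling. A probe counts as detected on an array when its detection p-value, set against the negative control beads of that array, is under 0.05. Between 9738 and 14751 probes were detected per array, with group means of 13012 ± 485 (SD, n = 4) in controls and 11469 ± 1475 in irradiated organoids at 24 h. At 48 h controls averaged 14071 ± 49.3 and irradiated organoids 13660 ± 783. At 96 h controls averaged 12992 ± 895 and irradiated organoids 12118 ± 1251, so irradiated arrays had the lower mean at each time. Correlations between arrays of the same group ran from 0.948 to 0.993 over the tested probes. Each time was run on 1 chip of 8 arrays, with controls in the first 4 positions and irradiated samples in the last 4. Position on the chip and irradiation therefore cannot be told apart, nor can chip and time. All 10 intestinal epithelial markers on the array, among them Vil1 and Cdh1, were detected on all 24 arrays. Of the markers of other cell types, 8 of 10 mesenchymal, 5 of 7 immune, 3 of 5 endothelial and 1 of 3 mesothelial genes were detected on 0 arrays. Both tested mesothelial markers were called at each time, in opposite directions, with Msln higher by 1.55, 1.62 and 1.89 (log2) and Upk3b at -1.60, -1.64 and -2.94. These Upk3b values are of the brightest of 3 tested probes. All 3 were called lower at each time except 1 at 48 h (-0.16, adjusted p = 0.587, limma). The endothelial marker Tek, detected on 5 arrays, was 0.94 higher at 24 h (adjusted p = 0.0248, limma), a call lost with cyclic loess (0.62, adjusted p = 0.08). The part of these markers in the keratin results was not tested.

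The promoters of 4 keratins are shown because their genes lie in 2 neighbouring pairs, Krt20 with Krt23, which were called after irradiation, and Krt8 with Krt18, which were not. In the RefSeq annotation of build GRCm38.p6, Krt20 and Krt23 follow each other in the type I keratin cluster of chromosome 11, and Krt8 and Krt18 are neighbours at the end of the type II cluster of chromosome 15. Each line holds the 250 bases before the annotated gene start, 5′ to 3′ on the gene's strand, at chr11:99438154-99438403 (minus strand, Krt20), chr11:99493121-99493370 (minus strand, Krt23), chr15:102004343-102004592 (minus strand, Krt8) and chr15:102027966-102028215 (plus strand, Krt18). Capitals mark matches, on either strand, to 5 short motifs.
Krt20: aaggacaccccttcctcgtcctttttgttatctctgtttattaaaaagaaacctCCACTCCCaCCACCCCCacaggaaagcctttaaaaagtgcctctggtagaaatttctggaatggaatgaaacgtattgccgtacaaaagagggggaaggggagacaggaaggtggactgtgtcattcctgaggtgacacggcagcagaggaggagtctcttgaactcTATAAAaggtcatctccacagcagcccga
Krt23: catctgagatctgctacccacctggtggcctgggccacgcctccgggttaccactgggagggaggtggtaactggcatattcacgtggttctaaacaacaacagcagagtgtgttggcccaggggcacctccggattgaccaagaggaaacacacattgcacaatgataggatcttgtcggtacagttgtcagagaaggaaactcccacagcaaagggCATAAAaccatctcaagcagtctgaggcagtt
Krt8: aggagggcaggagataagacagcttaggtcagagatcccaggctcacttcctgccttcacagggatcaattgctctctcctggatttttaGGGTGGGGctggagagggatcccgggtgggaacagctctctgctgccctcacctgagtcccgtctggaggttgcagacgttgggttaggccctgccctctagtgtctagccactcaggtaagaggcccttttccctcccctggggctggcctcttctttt
Krt18: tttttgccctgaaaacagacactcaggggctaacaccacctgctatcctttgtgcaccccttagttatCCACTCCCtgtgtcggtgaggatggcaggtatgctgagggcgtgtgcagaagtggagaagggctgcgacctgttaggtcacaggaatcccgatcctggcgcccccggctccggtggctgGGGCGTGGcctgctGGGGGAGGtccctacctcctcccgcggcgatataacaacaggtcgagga

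The motifs searched were the TATA box (TATAAA), a core of the site of the intestinal CDX factors (TTTATG), the GC box GGGCGG, the AP-1 site TGANTCA, and CCNCNCCC for KLF factors. Krt20 has a TATA box 29 to 24 bases before the start, and 2 KLF matches. Krt23 has CATAAA, which is TTTATG on the other strand, 32 to 27 bases before the start. Krt8 has 1 KLF match and Krt18 has 3, and none of the 4 windows holds the letters of the GC box or the AP-1 site. Among 32851 mouse promoter windows of the same length, 12.4% held TATAAA, 10.8% TTTATG, 32.7% GGGCGG, 6.75% TGANTCA and 45.9% CCNCNCCC. A match is a run of letters and is not shown to be a bound site.

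The keratins of the gut lining were detected on every array, and most keratin probes of stratified epithelia and hair on at most 3. All 5 simple epithelial probes (Krt7, Krt8, Krt18, Krt19 and Krt23) and the villus keratin Krt20 were detected on all 24 arrays. Among the 16 stratified probes, 2 were detected on all 24 arrays, Krt5 and Krt10. A further 5 were detected on 4 to 23 arrays (Krt15, Krt4, Krt24, Krt78 and Krt80), 3 on 1 to 3 arrays (Krt14, Krt16 and Krt79) and 6 on 0 (Krt2, Krt9, Krt12, Krt13, Krt17 and Krt77). Of 23 hair and root sheath probes, 13 were detected on 0 arrays, 7 on 1 to 3 and 3 on 4 to 23 (Krt26, Krt75 and Krt82). Those on 0 arrays were Krt32, Krt35, Krt36, Krt39, Krt40, Krt71, Krt73, Krt74, Krt83 and further probes of Krt75, Krt82 (2 probes) and Krt86, and those on 1 to 3 were Krt25, Krt27, Krt31, Krt34, Krt84, 1 probe of Krt75 and 1 of Krt86. The remaining keratins, Krt222 and Krt42, were detected on 16 and 2 arrays.

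Probes detected on at least 4 arrays were tested, which left 17 of the 47 keratin probes (36.2%) against 58.6% of all probes. This filter does not require the 4 arrays to lie in 1 group, and at 0.05 a probe with no signal is detected now and then. With a detection p under 0.01 on at least 4 arrays, 11 of the 17 remained, and Krt222, Krt24, Krt26, Krt78, Krt80 and Krt82 were lost. Basal and suprabasal pairs were seen in part. Krt5 was detected on all 24 arrays and its usual basal partner Krt14 on 1, Krt4 on 7 and its partner Krt13 on 0. The keratins whose symbols carry a letter, Krt6a, Krt6b and Krt33a, were detected on 1, 1 and 2 arrays.

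**Figure D1:**
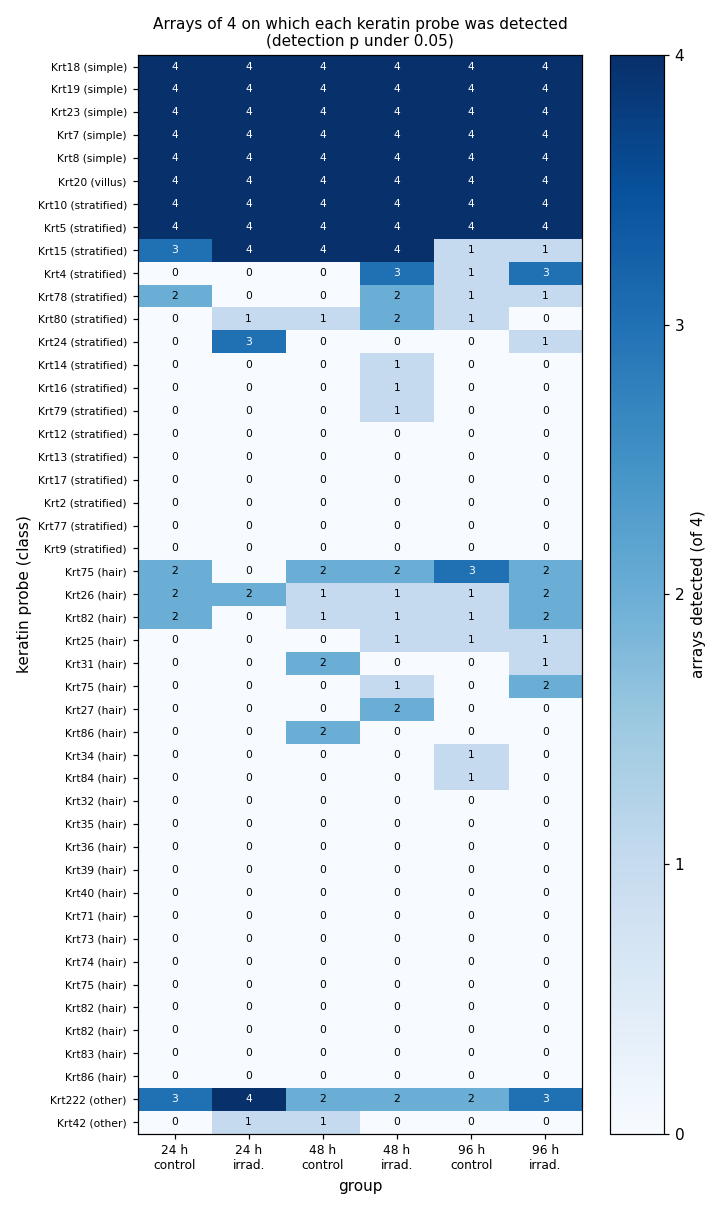
Number of arrays, of 4 in each group, on which each of the 47 keratin probes was detected (detection p under 0.05), with probes in rows by class and groups in columns. The simple epithelial and villus rows are at 4 throughout, and the hair rows are mostly at 0.

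Krt20, the keratin of differentiated villus cells, was higher in irradiated organoids at all 3 times, by 2.54-fold at 24 h, 2.32-fold at 48 h and 1.67-fold at 96 h. At 24 h its log2 values in the 4 control arrays (replicates 1 to 4) were 9.04, 9.50, 9.28 and 9.36, and in the irradiated arrays 10.53, 10.55, 10.79 and 10.69. Every irradiated array was over 1 unit above the highest control. At 48 h the controls gave 9.49, 9.47, 9.52 and 9.58, against 10.68, 10.68, 10.85 and 10.70 after irradiation. At 96 h they gave 9.24, 9.22, 9.27 and 9.22, against 9.92, 9.88, 10.02 and 10.07. The groups did not overlap at any time, and control means stayed within 0.28 of each other across the 3 times while irradiated means were lower at 96 h than before.

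In the fit, Krt20 rose by 1.35 ± 0.096 (log2, SE; 95% interval 1.15 to 1.55, adjusted p = 1.59e-09, limma) at 24 h. The rise was 1.21 at 48 h (1.01 to 1.41, adjusted p = 1.11e-08) and 0.74 at 96 h (0.54 to 0.94, adjusted p = 2.52e-05). With the arrays scaled to a common median in place of quantile normalization, the median of all tested probes moved by -0.44, -0.18 and -0.19 at the 3 times, and Krt20 stood 1.34, 1.11 and 0.63 above it. Its own value was then 0.44 at 96 h, with an adjusted p of 0.113, so that call was lost, while those at 24 and 48 h held (0.90 and 0.92).

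**Figure D2:**
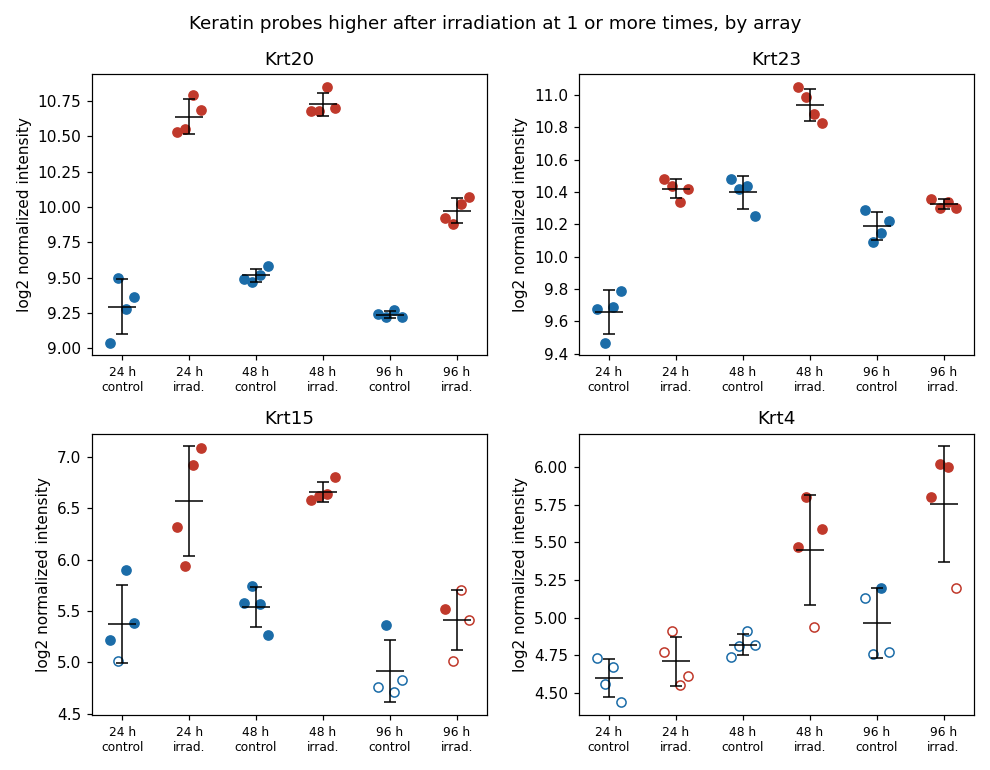
Log2 normalized intensity of Krt20, Krt23, Krt15 and Krt4 on each array, with controls in blue and irradiated samples in red at 24, 48 and 96 h. Filled points are detected and open points not detected, and bars are the mean ± SD of 4 arrays. Krt20 means rose from 9.29 to 10.64 at 24 h, from 9.51 to 10.73 at 48 h and from 9.24 to 9.97 at 96 h. The Krt23 difference is large at 24 h and near 0 at 96 h, and under median scaling it was not called at any time.

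Enterocyte genes were mostly higher, and the crypt stem cell markers Lgr5 and Olfm4 lower, at 24 and 48 h, when Krt20 was most raised. Of 8 listed enterocyte genes, 5 were on the array and tested, the apolipoproteins Apoa1 and Apoa4, the meprin proteases Mep1a and Mep1b, and the glucose transporter Slc5a1. All 5 rose at 24 h, from 0.48 (Apoa4) to 1.39 (Mep1b), 4 rose at 48 h and 1 at 96 h, where Mep1b was 1.13 higher, and of all tested probes 9.58%, 6.26% and 1.43% were called higher at the 3 times. Under median scaling 2 of the 5 calls held at 24 h (Apoa1 and Mep1b), 3 of 4 at 48 h and that of Mep1b at 96 h. Their summed linear level was 8123 to 10096 in controls and 13030 to 16298 in irradiated organoids at 24 h. It was 6290 to 7453 against 12585 to 14013 at 48 h, and 5192 to 7038 against 5731 to 7097 at 96 h, where the groups overlapped. Krt20 did not overlap at 96 h. Lgr5, the R-spondin receptor of stem cells at the crypt base, fell by 1.48 at 24 h (adjusted p = 2.46e-08), 0.86 at 48 h (adjusted p = 7.18e-05) and 0.50 at 96 h (adjusted p = 0.0288). Olfm4, a glycoprotein secreted by the same cells, fell by 1.27 at 24 h (adjusted p = 8.12e-09) and 0.65 at 48 h (adjusted p = 0.000133), and at 96 h it was at -0.04 (adjusted p = 0.883). Both belong to the 10 intestinal epithelial markers, of which 4 were called higher and 3 lower at 24 h. At 48 h 2 were higher and 2 lower, and at 96 h 0 and 1, with list medians of -0.02, 0.01 and 0.00. The other calls at 24 h were Vil1 (0.45), Fabp1 (0.78), Fabp2 (0.89) and Lyz1 (0.36), all higher, and Cdx1 (-0.59). Under median scaling the 4 higher calls at 24 h were lost. The part of enterocytes and stem cells in the Krt20 result was not tested.

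Krt23, the neighbour of Krt20 and a type I keratin that is induced in stressed mouse liver, was the only simple epithelial keratin called, and it was higher at 24 and 48 h. Its control values at 24 h were 9.68, 9.47, 9.69 and 9.79, and the irradiated values 10.48, 10.44, 10.34 and 10.42. The gap between the groups was wider than the spread inside either. At 48 h the values were 10.48, 10.42, 10.44 and 10.25 in controls and 11.05, 10.99, 10.88 and 10.83 after irradiation, and again did not overlap. At 96 h they were 10.29, 10.09, 10.15 and 10.22 against 10.36, 10.30, 10.34 and 10.30, which lie next to each other. The rise was 0.76 ± 0.090 (SE; 1.70-fold, adjusted p = 1.53e-06) at 24 h and 0.54 (1.46-fold, adjusted p = 0.00021) at 48 h. At 96 h the difference was 0.14 (95% interval -0.05 to 0.33, adjusted p = 0.473). Under median scaling Krt23 was 0.30 (adjusted p = 0.181) and 0.24 (adjusted p = 0.405) higher at 24 and 48 h, so both calls were lost, and -0.17 at 96 h. Against the shifted median of all probes it then stood 0.75, 0.43 and 0.02 higher.

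The other 4 simple keratins, which form the general filaments of simple epithelia, did not pass the test at any time, although all 12 fitted differences were above 0. Of all tested probes 42.4%, 45.5% and 50.7% were above 0 at 24, 48 and 96 h. The 4 genes shared their low arrays, so the 12 signs are not independent. Krt8, the type II keratin on which simple filaments depend, ranged from 11.74 to 12.14 in controls and from 11.87 to 12.31 in irradiated organoids at 24 h. Its differences were 0.12 (95% interval -0.19 to 0.43), 0.36 (0.05 to 0.67) and 0.22 (-0.09 to 0.53) at 24, 48 and 96 h, with adjusted p of 0.601, 0.135 and 0.505. At 48 h the Krt8 groups did not overlap, with 11.75 to 12.23 in controls and 12.26 to 12.62 after irradiation. Its partner Krt18 gave 0.31 (0.03 to 0.60), 0.33 (0.05 to 0.62) and 0.37 (0.09 to 0.66), with adjusted p of 0.109, 0.132 and 0.149. The Krt18 intervals lie above 0 at each time, and its groups did not overlap at 24 h (10.96 to 11.33 against 11.49 to 11.60) or at 96 h (11.08 to 11.56 against 11.62 to 11.81), yet no call held after adjustment.

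Krt19, the small type I keratin that lacks a tail domain, differed by 0.18 (-0.21 to 0.56), 0.34 (-0.05 to 0.73) and 0.31 (-0.08 to 0.70), with adjusted p of 0.534, 0.278 and 0.435. Krt7, a type II keratin of ducts and glands, differed by 0.41 (0.01 to 0.82), 0.52 (0.11 to 0.93) and 0.39 (-0.01 to 0.80), with adjusted p of 0.14, 0.0979 and 0.325. These intervals allow rises of up to 0.93 as well as no change at some times, so they do not show that the simple keratins stayed level. The direction also depends on the scaling. Under median scaling Krt7, Krt8, Krt18 and Krt19 were at -0.08, -0.15, -0.01 and -0.11 at 24 h. With cyclic loess normalization Krt18 passed at 24 h (0.41, adjusted p = 0.031).

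These 4 keratins shared the arrays on which they were low. In 5 of the 6 groups the same array was lowest for Krt7, Krt8, Krt18 and Krt19 alike. At 48 h the control array that was lowest (replicate 4) read 11.75 for Krt8, 11.37 for Krt18, 10.78 for Krt19 and 9.96 for Krt7, while the other controls read 12.13 to 12.23, 11.85 to 11.91, 11.32 to 11.62 and 10.70 to 10.93. That array had the highest Krt20 of its group (9.58). Over the 5 low arrays Krt20 had no common place, since it was the highest of its group on 3, the second lowest on irradiated 24 h replicate 2 (10.55) and the lowest on irradiated 96 h replicate 2 (9.88). The number of detected probes was lowest in its group on 3 of these 5 arrays and highest on 1. The part of array quality in this was not tested. Within-group SDs ran from 0.21 to 0.42 for Krt7 and 0.16 to 0.39 for Krt19, against 0.02 to 0.19 for Krt20 and 0.03 to 0.13 for Krt23.

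**Figure D3:**
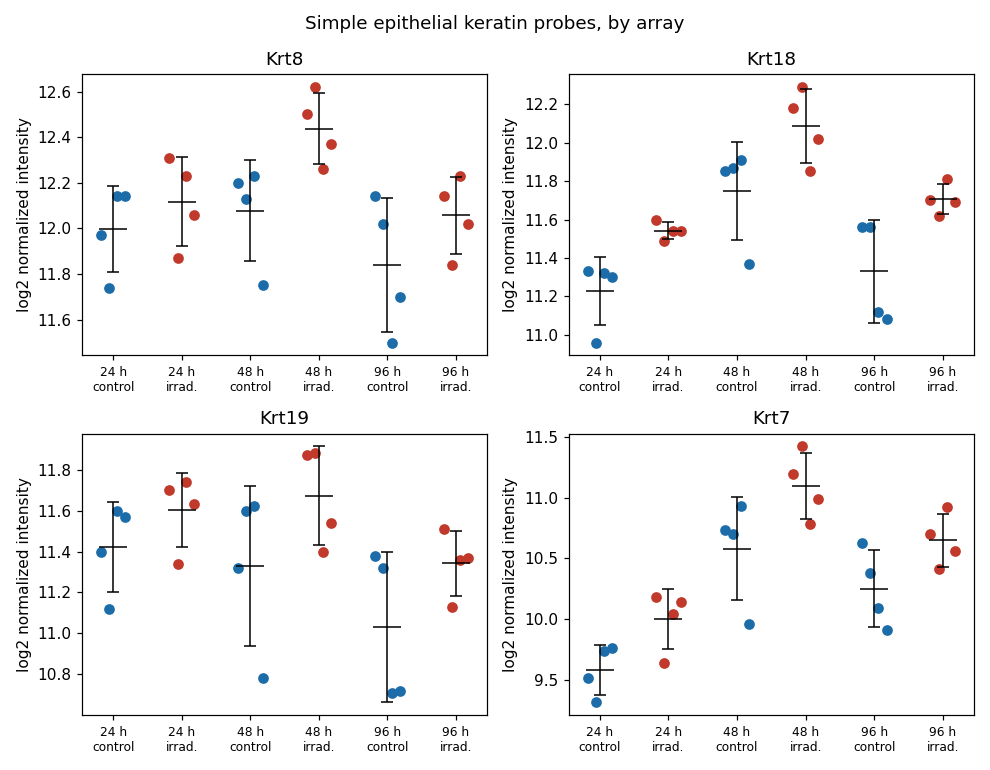
Log2 normalized intensity of Krt8, Krt18, Krt19 and Krt7 on each array, with controls in blue and irradiated samples in red at 24, 48 and 96 h. Bars are the mean ± SD of 4 arrays, and all points are detected. The control and irradiated points overlap in most comparisons, and in 5 of the 6 groups 1 low array recurs across the 4 genes.

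Set beside the simple keratins on the same arrays, the Krt20 difference was the larger in every comparison. At 24 h its log2 difference exceeded that of Krt7 by 0.93, Krt8 by 1.23, Krt18 by 1.03, Krt19 by 1.17 and Krt23 by 0.58, and the within-array ratios of the 2 groups did not overlap for any of the 5. At 48 h the excess was 0.70, 0.85, 0.88, 0.87 and 0.67 in the same order, with overlap for Krt7 alone. At 96 h it was 0.34, 0.52, 0.36, 0.43 and 0.60, with overlap for Krt7 and Krt19. These ratios show unequal differences between probes of the same arrays, and no test was made of them.

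Among the stratified keratins, Krt15 was higher at 24 and 48 h. Krt15 is a basal type I keratin, a mark of hair follicle stem cells, and its promoter has been used to label crypt cells in the mouse intestine. Its values at 24 h were 5.22, 5.01, 5.90 and 5.38 in controls, of which the second was not detected, and 6.32, 5.94, 6.92 and 7.09 after irradiation. The dimmest detected probe read 5.15 to 5.37 on these control arrays and 5.27, 5.40, 6.26 and 5.90 on the irradiated arrays. The part of this unequal limit in the Krt15 difference was not tested. At 48 h they were 5.58, 5.74, 5.57 and 5.27 against 6.58, 6.62, 6.64 and 6.80, all detected. The groups did not overlap at either time. At 96 h the probe was detected on 1 control and 1 irradiated array, and the values, 4.76, 5.36, 4.71 and 4.83 against 5.52, 5.01, 5.70 and 5.41, overlapped. The rise was 1.19 ± 0.22 (SE; 2.28-fold, adjusted p = 0.000441) at 24 h and 1.12 (2.17-fold, adjusted p = 0.00132) at 48 h. At 96 h the difference was 0.50 (95% interval 0.04 to 0.95, adjusted p = 0.256). The size depends on the processing of this dim probe. Without background correction the rises were 0.58 and 0.55, with an offset of 50 they were 0.77 and 0.74, and median scaling gave 0.76 and 1.14, all still called.

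Krt4, the type II keratin of oesophagus and mouth, was higher at 48 and 96 h from levels that were mostly not detected. At 24 h it was detected on 0 of 8 arrays. At 48 h the controls, none detected, read 4.74, 4.81, 4.91 and 4.82, and the irradiated arrays 5.47, 5.80, 4.94 and 5.59, of which the third was not detected. Since no control array detected it, only a bound can be given, a level at least 1.31-fold higher (fitted difference 0.63, adjusted p = 0.0207). At 96 h the controls read 5.13, 4.76, 5.20 and 4.77, with 1 detected, and the irradiated arrays 5.80, 6.02, 6.00 and 5.20, with 3 detected. The groups met at 5.20, and the rise was 0.79 (1.73-fold, adjusted p = 0.00806). The 48 h call rests on single arrays. It was lost without control replicate 1 (0.60, adjusted p = 0.0585), without irradiated replicate 2 (0.51, adjusted p = 0.0795) and without irradiated replicate 4 (0.58, adjusted p = 0.0686). It was also lost in the authors' processed values (0.29, adjusted p = 0.0532), and the 96 h call was lost when the arrays of that time were fitted alone (adjusted p = 0.139).

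Krt24, another type I keratin, was called at 24 h, where 0 of 4 control and 3 of 4 irradiated arrays detected it. The controls read 4.70, 4.84, 4.56 and 4.61 and the irradiated arrays 5.52, 5.55, 6.30 and 4.84. With the controls raised to the dimmest detected level of their arrays (5.15 to 5.37), the irradiated mean was 1.22-fold higher. The fitted difference was 0.88 (adjusted p = 0.016, limma). On the irradiated arrays the dimmest detected level was 5.27, 5.40, 6.26 and 5.90, so the reading of 6.30 lay next to the limit of its own array. The 1.22-fold is therefore not a safe lower bound, and the lowest irradiated array met the highest control. Without irradiated replicate 3 the difference was 0.63 with an adjusted p of 0.0801, so 1 array decided the call. Krt24 was detected at a p under 0.01 on 0 arrays. Krt4 and Krt24 passed the filter mostly through the groups in which they were high, so their calls give a count of the class no support.

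Krt10 and Krt5, the stratified keratins detected on every array, were not called. Krt10, the suprabasal type I keratin of skin, read 7.55, 8.04, 7.76 and 7.64 in controls and 7.47, 7.42, 7.21 and 7.48 after irradiation at 24 h. At 48 h it read 8.25, 7.99, 8.36 and 8.31 against 7.61, 7.79, 7.91 and 7.75. It was the only tested keratin whose irradiated values lay wholly below the controls, at both times. Its differences were -0.35 (adjusted p = 0.145) and -0.46 (95% interval -0.81 to -0.11, adjusted p = 0.088), and -0.14 at 96 h, where the groups overlapped. With median scaling Krt10 passed at 24 h (-0.94, adjusted p = 0.000839) and 48 h (-0.67, adjusted p = 0.0393). With the arrays of that time fitted alone it passed at 48 h (adjusted p = 0.0323), as it did without irradiated 96 h replicate 2 or 4.

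Krt5, the basal type II keratin, differed by 0.10, 0.33 and -0.04 at 24, 48 and 96 h, with adjusted p of 0.801, 0.423 and 0.96. Its control values at 96 h ran from 5.91 to 7.41 and enclosed the irradiated values, 6.56 to 7.04. Krt78, a type II keratin of stratified epithelia, differed by -0.07, 0.43 and 0.18, and Krt80 by 0.14, 0.07 and 0.09, and none passed.

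Other stratified markers moved beside Krt15 and Krt4. Of 11 listed stratified genes, which include Krt5 and Krt14, 10 were on the array and 4 were tested, and Trp63, Dsg1a, Dsc3 and Krtdap were detected on 0 arrays. The cornified envelope protein loricrin (Lor) rose by 1.17 at 48 h (adjusted p = 0.0276) and 1.83 at 96 h (adjusted p = 0.0016). Involucrin (Ivl), another envelope protein, was at least 2.61-fold higher at 48 h (adjusted p = 8.18e-09), and the secreted protein dermokine (Dmkn) rose by 0.95 at 24 h (adjusted p = 0.0418, and 0.0536 under median scaling). Ivl was detected on 6 arrays, none of them at 24 h or among the 48 h controls. It passed the filter at least in part through the group in which it was high, so its call gives a count of the list no support. Of the 4 tested genes 1, 2 and 1 were called higher at 24, 48 and 96 h, against 9.58%, 6.26% and 1.43% of all tested probes. The summed linear level of the list took in all 10 genes on the array, tested or not. It was 333 to 375 in controls and 401 to 463 after irradiation at 24 h. At 48 h it was 343 to 435 against 548 to 609, and at 96 h 339 to 472 against 559 to 612. Part of each sum is background of genes that were not detected, and part is Krt5 itself. The part of stratified cells in the Krt15 and Krt4 results was not tested.

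The 3 hair keratin probes that were tested and Krt222 were not called at any time. Krt26 and Krt75, keratins of the root sheaths, differed by 0.44 and 0.11 at 24 h, 0.06 and 0.07 at 48 h, and 0.24 and 0.48 at 96 h. Krt82, of the hair cuticle, differed by 0.16, 0.08 and 0.32, and Krt222 by 0.40, 0.12 and 0.35. These probes were detected on 7 to 16 arrays spread over 5 or 6 of the groups. With the number of detected probes of each array as a covariate, added after seeing the data, Krt222 was -0.29 at 24 h and Krt75 -0.43.

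Over the 17 tested keratin probes, 4 were higher and 0 lower at 24 h, where 22.1% of all tested probes were called, 9.58% higher and 12.6% lower. The 4 were Krt20, Krt23, Krt15 and Krt24. Krt24 here, and Krt4 below, passed the filter mostly through the groups in which they were high. At an unadjusted p under 0.05, 6 were higher and 1 lower. The share of all probes at that threshold was not taken, so unadjusted counts, here and below, cannot be read as an excess. At 48 h, 4 were higher, Krt20, Krt23, Krt15 and Krt4, and 0 lower, against 11.3% of all probes called, 6.26% higher and 5.04% lower. The unadjusted counts were 8 and 1. At 96 h, 2 were higher, Krt20 and Krt4, and 0 lower, against 4.2% of all probes, 1.43% higher and 2.78% lower, with unadjusted counts of 4 and 0. Under median scaling the share of higher calls among all calls was 7.58%, 33.4% and 11.3% at the 3 times, against 43.3%, 55.4% and 34% here, and Krt10 was called lower at the first 2.

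By class, 1 of 5 simple probes rose at 24 h, 1 at 48 h and 0 at 96 h, while at an unadjusted p under 0.05 the counts were 3, 4 and 1. Of the 16 stratified probes 7 were tested, with 2, 2 and 1 higher, against 9.58%, 6.26% and 1.43% of all tested probes. These were Krt15 and Krt24, then Krt15 and Krt4, then Krt4. Since Krt4 and Krt24 passed the filter mostly through the groups in which they were high, the counts give the class no support. The median difference of the simple probes was 0.31, 0.36 and 0.31 at the 3 times, and that of the tested stratified probes 0.11, 0.33 and 0.18. Over all tested probes the medians were -0.07, -0.03 and 0.00. Groups did not overlap for 5 of 17 probes at 24 h (27.1% of all probes), 6 at 48 h (19.1%) and 3 at 96 h (6.99%). By chain type, the 9 tested type I probes held 4, 3 and 1 rises and the 8 tested type II probes 0, 1 and 1, the latter both Krt4. The type I count at 24 h includes Krt24, so with the same limit of the filter these counts do not compare the chain types.

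**Figure D4:**
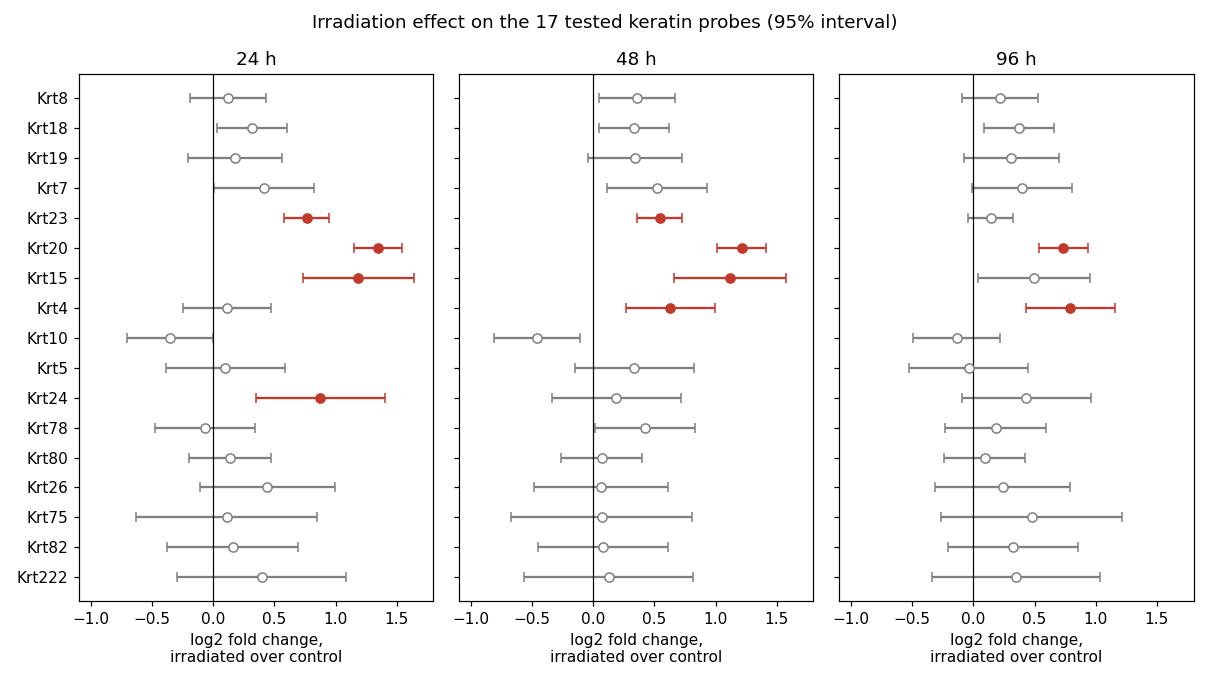
Log2 fold change of irradiated over control for the 17 tested keratin probes at 24, 48 and 96 h, with 95% intervals. Red filled points passed the test (adjusted p under 0.05) and open grey points did not. Krt20 is at 1.35, 1.21 and 0.74, Krt7, Krt8, Krt18 and Krt19 lie between 0.12 and 0.52, and Krt10 lies below 0 at each time. Under median scaling these 4 fall below 0 at 24 h.

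The irradiation effect of Krt20 and Krt23 was smaller at 96 h than at 24 h. For Krt20 the effect at 96 h minus that at 24 h was -0.61 ± 0.14 (SE; 95% interval -0.89 to -0.33, adjusted p = 0.00581), and for Krt23 -0.62 (-0.89 to -0.36, adjusted p = 0.00282). These were the 2 keratin probes called in this contrast, both lower, where 9.89% of all probes were called, 4.36% higher and 5.53% lower. Median scaling left 0 called. Between 96 and 48 h Krt20 differed by -0.48 (adjusted p = 0.0644) and Krt23 by -0.40 (adjusted p = 0.0982), and limma called 0 keratins against 2.7% of all probes, 2.14% lower (0 higher and 2 lower at an unadjusted p under 0.05). Of 13 other settings 8 called 1 or 2. Between 48 and 24 h 0 were called, with 0.777% of all probes called, 0.571% lower, and 1 keratin higher at an unadjusted p under 0.05. Krt15 and Krt4 went separate ways in value, -0.69 (adjusted p = 0.171) and 0.68 (adjusted p = 0.0853) for 96 h minus 24 h, and neither passed. Since each time was on its own chip, a difference between times and a difference between chips cannot be told apart.

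Control levels of some keratins also differed between the times. Mean control values at 24, 48 and 96 h were 9.59, 10.58 and 10.25 for Krt7 and 9.66, 10.40 and 10.19 for Krt23. Those of Krt18 were 11.23, 11.75 and 11.33, and those of Krt20 9.29, 9.51 and 9.24. The Krt7 controls thus spanned 0.99, more than any irradiation difference of that gene, and Krt23 controls at 48 h averaged about as high as its irradiated samples at 24 h. Time and chip cannot be told apart in these levels.

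A few genes that anchor keratin filaments were called at 24 and 48 h, and most were not. Of 21 listed desmosome and cytolinker genes 16 were on the array and 11 were tested, by the brightest probe. At 24 h 2 rose and 1 fell, at 48 h 3 rose and 1 fell, and at 96 h 0 were called by limma, with 1 higher at an unadjusted p under 0.05. Of all tested probes 22.1%, 11.3% and 4.2% were called at the 3 times, and 3 of 11 at 24 h is near that share. The median differences were -0.07, 0.38 and 0.07. Integrin beta 4 (Itgb4), a hemidesmosome receptor, rose by 0.64 (adjusted p = 0.00537) and 0.93 (adjusted p = 0.000287), and its other probe was called too. Plectin (Plec1), which links filaments to hemidesmosomes, rose by 0.76 (adjusted p = 0.00641) and 0.94 (adjusted p = 0.00175). Its probes disagreed, since of 4 other tested probes 0 were called at 24 h and 2 at 48 h. The desmosomal cadherin desmoglein 2 (Dsg2) rose by 0.62 at 48 h (adjusted p = 0.0116), with both other probes called, while the desmosomal plaque protein plakophilin 1 (Pkp1) fell by 0.66 (adjusted p = 0.0266) and 0.65 (adjusted p = 0.0478). Under median scaling the 24 h calls of Itgb4 (0.05, adjusted p = 0.864) and Plec1 (0.19, adjusted p = 0.474) and the 48 h call of Dsg2 (0.37, adjusted p = 0.25) were lost, and with cyclic loess the 24 h call of Pkp1 (adjusted p = 0.124).

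Of 15 listed other intermediate filament genes 13 were on the array and 8 were tested, with 3 higher and 1 lower at 24 h. At 48 h 2 were higher and 1 lower, and at 96 h 1 was lower, against the same 22.1%, 11.3% and 4.2% of all tested probes. The median differences were 0.21, 0.03 and 0.19. Lamin A/C (Lmna), of the nuclear lamina, rose by 0.67 (adjusted p = 0.00887) and 0.86 (adjusted p = 0.00193), with all 4 other probes called at both times. Lamin B1 (Lmnb1), which is lost in senescent cells, fell by 0.53 (adjusted p = 0.000213) and 0.46 (adjusted p = 0.00132), and its other probe was called at 24 h but not at 48 h. Vimentin (Vim), the filament of mesenchymal cells, was detected on 12 arrays. At 24 h it was 1.31-fold above the controls raised to their detection limit (fitted difference 0.71, adjusted p = 0.0129, limma). Irradiated arrays had higher limits at that time, so this fold is not a safe lower bound. Vim rose by 0.89 at 48 h (adjusted p = 0.00405). Of the other mesenchymal markers Acta2 alone was tested, and it rose at 48 h by 0.87, while 8 were detected on 0 arrays. The neuronal filament genes Ina, 0.88 higher at 24 h (adjusted p = 0.0333), and Nefm, which fell by 0.63 at 96 h (adjusted p = 0.0352), complete the called genes. Under median scaling both Lmna calls were lost (0.11, adjusted p = 0.687, and 0.61, adjusted p = 0.0669), as were those of Nefm (adjusted p = 0.0518) and Acta2 (adjusted p = 0.0918), while those of Lmnb1 and Vim held. Nefm was also lost with cyclic loess (adjusted p = 0.112) and in the authors' processed values (adjusted p = 0.0516), and Ina with cyclic loess (adjusted p = 0.0585).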

How the data were processed

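RNA of 24 organoid samples was measured on Illumina BeadChips. The authors deposited mean bead signals per probe as intensity on a linear scale, which from the values are not normalized. Per the file headers, every signal has its own detection p-value. They also deposited processed intensity values, which from the values equal quantile normalization of those signals without background subtraction to within 0.032 on the log2 scale. The software was not given in the sources used here.

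Signals were background corrected (normexp from the detection p-values, offset 16), quantile normalized and put on the log2 scale with limma 3.58.1 (R 4.3.3; files were read with data.table, version 1.17.8). The test took the 15056 of 25697 probes with a detection p-value under 0.05 on 4 or more arrays. All 24 arrays entered 1 linear model, with a mean for each group and variances moderated by eBayes (18 residual degrees of freedom, 4.21 prior). Two-sided p-values were adjusted within each contrast across the tested probes (Benjamini-Hochberg) and called under 0.05. The number of arrays, 4 per group, limits the precision, with a median SE of 0.18 per irradiation effect. The fit was tested on simulated data.

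For a probe detected on none of a group's arrays, the fold is printed as a lower bound. The dim group was raised, array by array, to the level of the dimmest detected probe where it lay under it, and its mean was then set against that of the brighter group. Arrays of the brighter group were left as read. Where their own limit was higher, as on irradiated arrays at 24 h, the fold is not a safe lower bound. The text names every keratin symbol, and of the anchoring and filament lists all called members, by the brightest probe. Classes and lists were written from general knowledge, and members and lists were chosen with earlier results of these data known. Alternatives covered background correction, offset, normalization, the authors' values, filters, the samples fitted, the variance model, 1 probe a gene, the replicate number as a block and the omission of single arrays. A covariate for the detected probes per array was chosen after seeing the data. Promoters are from RefSeq (GRCm38.p6), matched by symbol for Krt20, Krt23, Krt8 and Krt18 and not for Krt15, Krt19 and Krt4.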

Additional observations from a re-analysis of the deposited data

Results flagged for a closer look

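In 4 of 102 groups of 4 arrays, over the 17 tested keratin probes, 1 array lay far from the other 3 by Dixon's criterion on the gap over the range, where chance gives about 1 in 20. Krt18 in control 24 h replicate 2 read 10.96 against 11.30 to 11.33 in the others. Krt18 in control 48 h replicate 4 read 11.37 against 11.85 to 11.91, and both arrays were the lowest of their group for Krt7, Krt8 and Krt19 as well. Krt20 in irradiated 48 h replicate 3 read 10.85 against 10.68 to 10.70, on the array that was lowest in its group for those 4 keratins. Krt78 in control 96 h replicate 4 read 5.78 against 4.86 to 5.02. The irradiation effect differed between 96 and 24 h for Krt20 (-0.61, adjusted p = 0.00581, limma) and for Krt23 (-0.62, adjusted p = 0.00282), by a test of the difference itself. Irradiated arrays lay above all controls for Krt20 and Krt23 on 4 of 4 arrays at each of these times. Of all tested probes, 27.1% at 24 h and 6.99% at 96 h had no overlap. For Krt23 at 96 h the highest control read 10.29 and the lowest irradiated array 10.30, and the difference of 0.14 was not called (adjusted p = 0.473, limma).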

How the results depend on the processing

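Leaving out each array in turn gave 3 to 4 keratin probes called at 24 h, 3 to 5 at 48 h, 2 at 96 h, 0 for 48 h minus 24 h, 2 to 3 for 96 h minus 24 h and 0 to 1 for 96 h minus 48 h. The Krt20, Krt23 and Krt15 calls at 24 and 48 h held in each of these fits, with Krt20 at 1.26 to 1.41 and 1.17 to 1.23, as did Krt20 at 96 h (0.70 to 0.77). Of 78 counts of calls under the other settings, 66 stayed within 1.5 times and 12 moved. At 96 h 1 probe was called under median scaling, with detection required on 8 arrays and with the arrays of that time fitted alone. For 96 h minus 24 h median scaling called 0. For 96 h minus 48 h, where the main count was 0, 2 were called without background correction, in the authors' processed values and with trended robust variances. In that contrast 1 was called with an offset of 50, a detection p under 0.01, no filter, 1 probe a gene and the covariate of detected probes, and without control 24 h replicate 1. The cause was not tested.

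No reversed value concerned a call. Under median scaling Krt7, Krt8, Krt18, Krt19, Krt5 and Krt75 were -0.08, -0.15, -0.01, -0.11, -0.42 and -0.03 at 24 h, Krt8 and Krt23 -0.11 and -0.17 at 96 h, and Krt20 0.03 for 48 h minus 24 h. With the covariate Krt222 was -0.29, -0.06 and -0.04 and Krt26 0, -0.05 and -0.01 at 24, 48 and 96 h, Krt75 -0.43 and -0.08 and Krt82 -0.37 and -0.06 at 24 and 48 h, and Krt5 -0.13 at 24 h. It also ended the Krt24 call at 24 h (0.51, adjusted p = 0.169). Without single arrays Krt75 ran from -0.14 to 0.35 at 24 h and -0.05 to 0.21 at 48 h, Krt80 from -0.01 to 0.22 and -0.04 to 0.17, and Krt82 from -0.08 to 0.34 and -0.12 to 0.21. Krt78 ran from -0.22 to 0.06 at 24 h, Krt222 from 0 to 0.28 at 48 h, and at 96 h Krt5 from -0.36 to 0.14 and Krt10 from -0.31 to 0.04. Without background correction Krt4 at 48 h was 0.29 (adjusted p = 0.0515).

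Whether same-numbered samples deviated together is not settled, with 7 of 12 correlations over 0.1 and a range of -0.42 to 0.46. At 24 h all 4 lay between 0.04 and 0.27. A replicate block called 4, 4 and 2 keratins. Without the filter Krt79 at 48 h (0.37, adjusted p = 0.0138, detected on 1 array) and a second Krt75 probe at 96 h (0.70, adjusted p = 0.0132, detected on 3) were called. Signal near background limits the values of Krt4, Krt15, Krt24, Krt78, Krt80, Krt222 and the hair keratins.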
